A study of Mus musculus with 23 samples.

Results

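The miR-200 family is a group of 5 related microRNAs, short RNAs that lower the output of messenger RNAs they pair with. Its mature 3p products were taken by their 5 identifiers from a panel of 602 microRNA rows, and all 5 were found: miR-200b-3p (MIMAT0000233), miR-200a-3p (MIMAT0000519), miR-429-3p (MIMAT0001537), miR-200c-3p (MIMAT0000657) and miR-141-3p (MIMAT0000153). They were read on a NanoString nCounter mouse panel in total RNA of 23 samples of cells sorted from lungs of wild-type C57BL6 mice, with no treatment of the animals named in the labels. Of these, 13 were type II pneumocytes (AT2, the surfactant-making cells of the alveolus, with CD326 in the sample descriptions) and 10 were endothelial cells (EC, the lining of blood vessels, with CD31 in the descriptions). The stages were embryonic days 16.5 and 18.5 and postnatal days 1, 7, 14 and 28, written E16.5, E18.5, P1, P7, P14 and P28. There were 3 AT2 samples at P28 and 2 at every other stage, and 1 EC sample each at E18.5 and P1 and 2 at the other stages. The labels call the AT2 samples type II pneumocytes at E16.5 too, and how pure each sort was is not given in them.

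The miR-200 family is a textbook marker of epithelial cells. Its members pair with sites in the 3' UTRs of Zeb1 and Zeb2, transcriptional repressors of epithelial genes, and those repressors bind the promoters of both miR-200 loci, so that the microRNAs and the repressors hold each other down. Loss of the family accompanies the change of epithelial cells into mesenchymal ones, and endothelial cells are known for low levels of it. Each locus is transcribed as a precursor that holds several hairpins, so that members of 1 cluster start from a shared transcript, while the targets a member can pair with depend mostly on its seed, bases 2 to 8 counted from its 5′ end.

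The mature sequences are shown because the family can be divided in 2 ways that cut across each other, by cluster and by seed. They are those of RefSeq on GRCm38.p6, 5′ to 3′, with the seed in capitals, and all 5 lie on the minus strand. The cluster on chromosome 4 holds 3 hairpins over 1846 bases (chr4:156053905-156055750), overlaps no protein-coding gene, and lies 3087 bases from Ttll10.
miR-200b-3p: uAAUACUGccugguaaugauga
miR-200a-3p: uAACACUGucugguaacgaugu
miR-429-3p: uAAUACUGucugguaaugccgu
The cluster on chromosome 6 holds 2 hairpins over 477 bases (chr6:124717914-124718390), also overlaps no protein-coding gene, and lies 968 bases from Phb2 and 2316 bases from Ptpn6.
miR-200c-3p: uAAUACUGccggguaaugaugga
miR-141-3p: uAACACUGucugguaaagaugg

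In genome coordinates the mature miR-200b-3p is at chr4:156055685-156055706, miR-200a-3p at chr4:156054911-156054932 and miR-429-3p at chr4:156053916-156053937. Mature miR-200c-3p is at chr6:124718324-124718346 and miR-141-3p at chr6:124717917-124717938. The seeds of miR-200b-3p, miR-429-3p and miR-200c-3p were identical, and so were those of miR-200a-3p and miR-141-3p, so each cluster carries both seeds. The seeds differ by 1 base, U4C with miR-200b-3p read first and miR-200a-3p second and positions counted from 1 at the 5′ end. Members that share a seed across the clusters can be closer in sequence than neighbours on a chromosome. From miR-200a-3p to miR-141-3p there were 2 differences in 22 positions, C17A and U22G, and from miR-200b-3p to miR-200c-3p there were 2, U11G and A22G. The remaining pair of this kind, miR-429-3p to miR-200c-3p, was not closer, with 5, U9C, U11G, C19A, C20U and U22G. From miR-200a-3p to its neighbour miR-429-3p there were 4, C4U, C17U, A19C and U20C, and from miR-200c-3p to its neighbour miR-141-3p there were 4 in the positions both have, U4C, C9U, G11U and U17A. Whether the probes of such close sequences read each other's targets was not tested.

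Values are scaled nCounter signals, the counts of a sample times 1 factor for that sample. The microRNA counts of a sample summed to between 26640 (AT2 P28 replicate 1) and 571724 (EC P1 replicate 1). Background was the mean plus 2 SD of the 8 low ERCC control rows of a sample, and 302 microRNAs above it in at least 2 samples were tested, all 5 members among them. Nothing in the labels ties replicates to different mice, and the p-values below therefore reflect only how far these samples scatter, part of which may be technical. The row MIMAT0000138, singled out after its values were seen, was the highest of every EC sample and took 0.160 to 7.82% of microRNA counts in AT2 and 23.4 to 44.9% in EC. The lowest of its EC shares was in EC P14 replicate 2, which stood apart from the other EC samples in the family too. Results that rest on EC are therefore also given without this sample. They are also given without it, EC P1 replicate 1 and EC P28 replicate 2, all 3 singled out in earlier work on these data. These 3 had the highest family shares of the EC samples (4.78, 1.78 and 1.65% of microRNA counts). Leaving them out thus tends by itself to raise AT2 minus EC differences of the members. None of 31 marker names for endothelial, epithelial, leukocyte, mesenchymal and other cell types could be matched to a row, so the sorted cell types were not checked by named markers.

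All 5 members were high in AT2 and low in EC. The family as a whole took 3.39 to 10.01% of the microRNA counts in AT2 samples (median 7.32%, n = 13), and 0.143 to 4.78% in EC samples (median 0.554%, n = 10). The lowest AT2 share was in AT2 P28 replicate 3, and the highest EC shares were 4.78% in EC P14 replicate 2 and 1.78% in EC P1 replicate 1. In bulk samples, fewer cells of a type and less of the RNA per cell cannot be told apart, so a signal in EC can be that of endothelial cells or of other cells in the sample.

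On chromosome 4, miR-200b-3p had a lowest, median and highest signal of 2716, 3537 and 6470 in AT2, against 229, 938 and 3577 in EC. miR-200a-3p stood at 552, 2088 and 4000 in AT2, and at 22.2, 219 and 1453 in EC. miR-429-3p stood at 2165, 3443 and 4738 in AT2, against 94.4, 414 and 1538 in EC. Only for miR-429-3p, of the 5 members, did every AT2 sample lie above every EC sample, which was so for 0.331% of the tested microRNAs.

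On chromosome 6, miR-200c-3p had a lowest, median and highest signal of 1540, 2619 and 3951 in AT2, and of 72.2, 565 and 2570 in EC. miR-141-3p stood at 535, 1411 and 2556 in AT2, against 61.1, 155 and 740 in EC. The overlap between the cell types came from few samples. Without EC P14 replicate 2, all AT2 samples lay above all EC samples for miR-200b-3p, miR-429-3p and miR-200c-3p, as for 1.99% of the tested microRNAs, and the AT2 and EC ranges of miR-200a-3p and miR-141-3p still overlapped. All 5 members were above background in 13 of 13 AT2 samples and in 10 of 10 EC samples, except miR-200a-3p, which was above it in 9 of 10 EC samples. The exception was EC E16.5 replicate 2, where miR-200a-3p had 8 counts, 0.566 of that sample's limit.

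**Figure D1:**
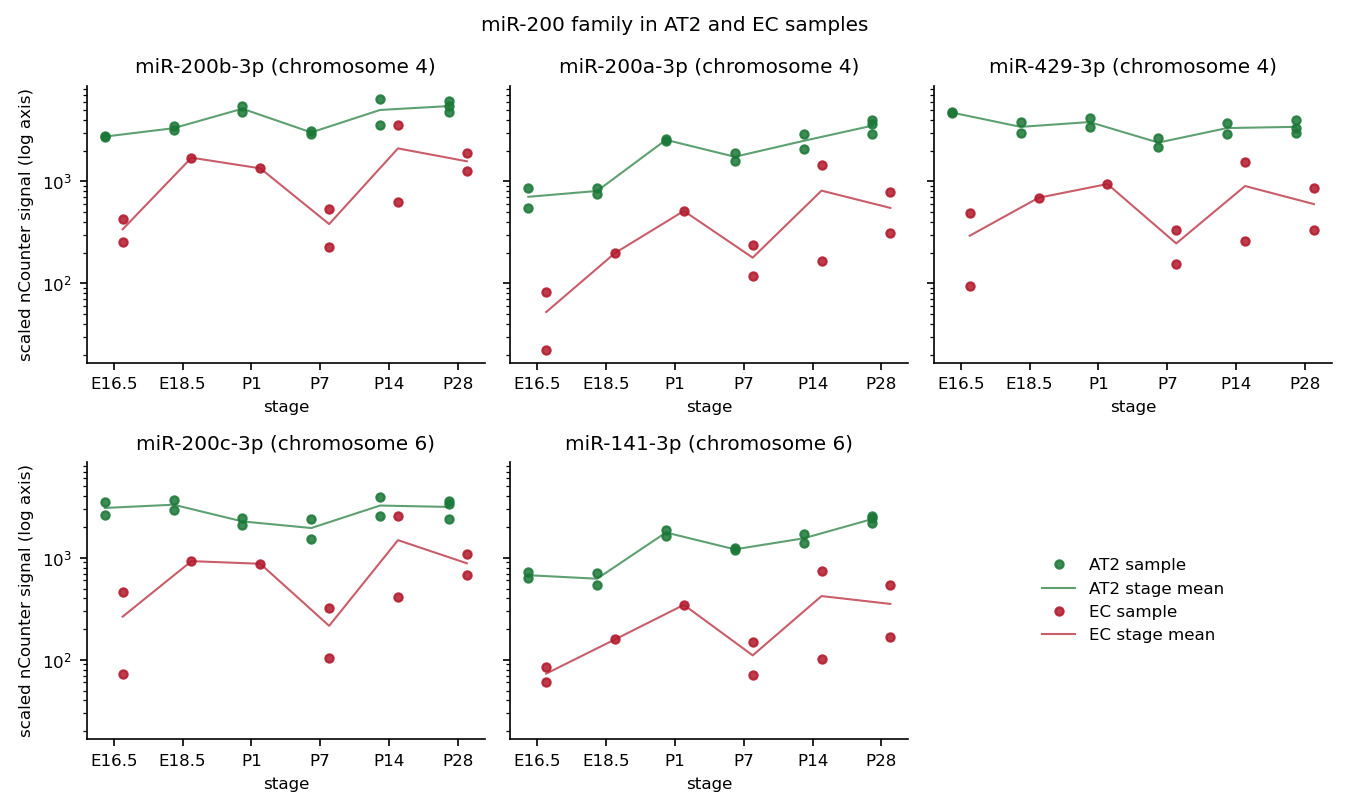
Scaled nCounter signal (log axis) of each miR-200 family member at the 6 stages, with AT2 samples in green and EC samples in red as points and lines through the mean of each stage. Every AT2 point of miR-429-3p lies above every EC point, and miR-200a-3p and miR-141-3p have their lowest AT2 points at E16.5 and E18.5 (552 to 858 and 535 to 719).

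The difference between the cell types was tested with limma on log2(signal + 1), as the mean over 6 stages, with p-values adjusted over the 302 microRNAs. All 5 members were higher in AT2, where 19.5% of the tested microRNAs were called higher. miR-200b-3p differed by a log2 of 2.09 ± 0.25 (SE, limma, adjusted p = 1.90e-06), a 4.27-fold difference. miR-200a-3p differed by 2.80 ± 0.32 (limma, adjusted p = 1.07e-06) and miR-429-3p by 2.86 ± 0.31 (limma, adjusted p = 5.98e-07), which is 6.95-fold and 7.27-fold.

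From chromosome 6, miR-200c-3p differed by a log2 of 2.35 ± 0.34 (SE, limma, adjusted p = 1.00e-05), a 5.10-fold difference. miR-141-3p differed by 2.75 ± 0.29 (limma, adjusted p = 3.33e-07), which is 6.74-fold. The median of the 5 was 2.75 and that of all tested microRNAs was -0.43. Among the 302 ranked from the highest difference down, miR-429-3p was 3rd, miR-200a-3p 4th, miR-141-3p 5th, miR-200c-3p 9th and miR-200b-3p 14th. Without the 3 EC samples named above, all 5 were called, with log2 differences from 2.44 for miR-200b-3p to 3.42 for miR-429-3p. Since those samples were high in the family, larger differences follow from the choice of samples.

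Both cell types came from the same specimen in 9 cases, by the numbers in the sample titles. Within these pairs each of the 5 members was higher in AT2 in 9 of 9, as were 9.93% of the tested microRNAs. The median log2 difference, AT2 minus EC, was 2.29 for miR-200b-3p (range 0.85 to 3.65), 2.71 for miR-200a-3p (0.99 to 4.57) and 2.68 for miR-429-3p (1.27 to 5.62). It was 2.43 for miR-200c-3p (0.62 to 5.16) and 2.97 for miR-141-3p (1.19 to 4.11). The specimens ranged widely. In the pair with EC P7 replicate 1, EC held 5.71 to 7.94% of the AT2 signal of a member, and in the pair with EC P14 replicate 2 it held 41.4 to 65.1%.

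**Figure D2:**
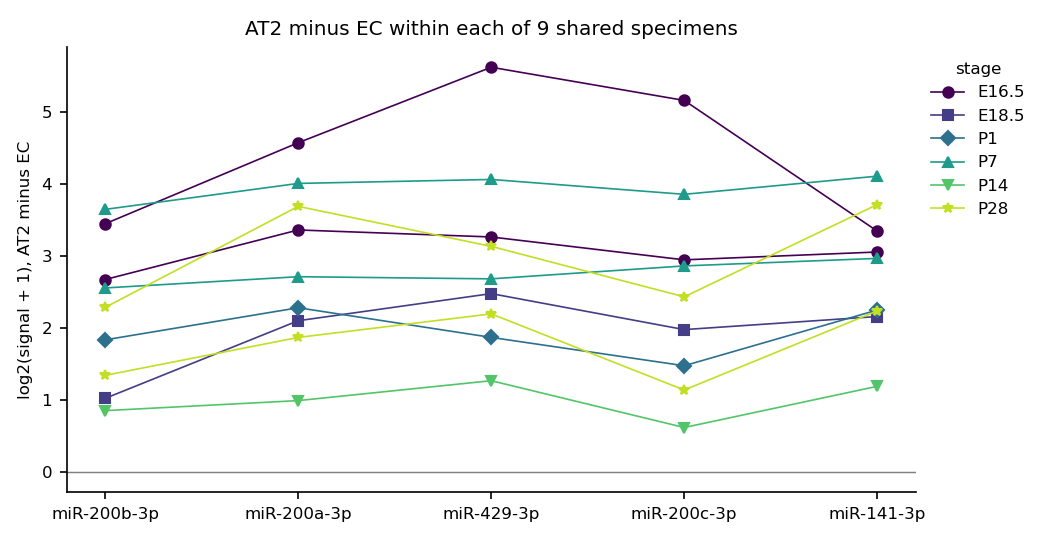
Log2 difference of signal + 1, AT2 minus EC, for each member (across) in each of the 9 specimens that gave both cell types (lines, with colour and symbol for the stage). All 45 points lie above 0, the P14 specimen is lowest for each of the 5 members, and the highest points are the 5.62 of miR-429-3p and the 5.16 of miR-200c-3p at E16.5.

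Stage by stage, the 5 members were called higher in AT2 at E16.5 and P7, and 4 of them at P14 and P28. At E16.5 the differences were 3.06 ± 0.58 for miR-200b-3p, 3.97 ± 0.74 for miR-200a-3p, 4.44 ± 0.72 for miR-429-3p, 4.06 ± 0.77 for miR-200c-3p and 3.20 ± 0.66 for miR-141-3p (log2 ± SE, limma), with 16.2% of the tested microRNAs called higher. At P7 they lay between 3.10 ± 0.58 for miR-200b-3p and 3.54 ± 0.66 for miR-141-3p (limma), with 12.3% called higher. Without EC P7 replicate 1, 3 of the 5 passed at P7, and miR-200a-3p (2.85, adjusted p = 0.0540) and miR-200c-3p (2.55, adjusted p = 0.0754, limma) did not.

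EC signals at E16.5 were 424 and 253 for miR-200b-3p, 82.4 and 22.2 for miR-200a-3p, 492 and 94.4 for miR-429-3p, 458 and 72.2 for miR-200c-3p and 85.5 and 61.1 for miR-141-3p. At P7 they were 229 and 533 for miR-200b-3p, 117 and 240 for miR-200a-3p, 156 and 336 for miR-429-3p, 105 and 325 for miR-200c-3p and 70.6 and 151 for miR-141-3p. These samples were all below the EC samples at E18.5 and P1, except that miR-200a-3p was higher in EC P7 replicate 2 than at E18.5. The single EC sample at E18.5 had 1704, 198, 690, 927 and 159, and that at P1 had 1339, 512, 940, 874 and 346, for miR-200b-3p, miR-200a-3p, miR-429-3p, miR-200c-3p and miR-141-3p in that order.

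At P14 miR-200b-3p (1.68 ± 0.58), miR-200a-3p (2.32 ± 0.74), miR-429-3p (2.38 ± 0.72) and miR-141-3p (2.48 ± 0.66) passed the threshold (log2 ± SE, limma), where 2.65% of the tested microRNAs were called higher, and miR-200c-3p stood at 1.63 ± 0.77 (limma, adjusted p = 0.13). The 2 EC samples at P14 were far apart, at 167 and 1453 for miR-200a-3p and at 410 and 2570 for miR-200c-3p. They were also at 626 and 3577 for miR-200b-3p, 259 and 1538 for miR-429-3p and 103 and 740 for miR-141-3p. Without the higher of them, EC P14 replicate 2, all 5 passed, miR-200c-3p at 2.95 (limma, adjusted p = 0.00828), and without the other, EC P14 replicate 1, none passed, with log2 differences of 0.31 to 1.10. None passed at P14 when either of the AT2 P14 samples was left out, or with quantile normalization, edgeR or a common floor at the highest background limit. MIMAT0000138 took 44.9% of the counts in EC P14 replicate 1 and 23.4% in EC P14 replicate 2, and its part in the P14 result was not tested.

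At P28 the differences were 1.82 ± 0.53 for miR-200b-3p, 2.82 ± 0.68 for miR-200a-3p, 2.66 ± 0.65 for miR-429-3p and 2.99 ± 0.60 for miR-141-3p, all past the threshold (log2 ± SE, limma, 10.9% of tested microRNAs called higher). miR-200c-3p stood at 1.85 ± 0.70 (limma, adjusted p = 0.0557), and passed with specimen as a block (1.84, limma, adjusted p = 0.0283). EC signals at P28 were 1250 and 1892 for miR-200b-3p, 309 and 788 for miR-200a-3p, 336 and 860 for miR-429-3p, 671 and 1097 for miR-200c-3p and 166 and 541 for miR-141-3p. The second of each pair was the higher for each member, and without the first, EC P28 replicate 1, none of the 5 passed.

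At E18.5 and P1, with 1 EC sample each, none of the 5 passed. The differences at E18.5 were 0.96 ± 0.71 for miR-200b-3p to 2.30 ± 0.88 for miR-429-3p (log2 ± SE, limma, adjusted p 0.120 to 0.399), 3 members had an unadjusted p under 0.05, and 0.662% of the tested microRNAs were called higher. At P1 they were 1.38 ± 0.94 for miR-200c-3p to 2.35 ± 0.80 for miR-141-3p (limma, adjusted p 0.0820 to 0.406), 4 members had an unadjusted p under 0.05, and 0.331% were called higher. With specimen as a block miR-141-3p passed at P1 (2.33, limma, adjusted p = 0.0441). At both stages the AT2 samples lay above the EC sample for all 5 members. With 1 EC sample such an order is easily met by chance, and its share over the tested microRNAs was not computed. Without EC P14 replicate 2, from which the shared spread is also estimated, 1 member passed at E18.5 and 3 at P1, and without all 3 EC samples named above 3 passed at E18.5.

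Within AT2 the 5 members did not follow 1 time course. miR-200a-3p and miR-141-3p, which share a seed and lie on different chromosomes, were higher at P7, P14 and P28 than at the embryonic stages, and with the values as deposited their cluster neighbours did not pass the test. These are bulk samples, and whether the cells sorted as AT2 changed in make-up between the stages was not tested. In the following the 7 AT2 samples of P7, P14 and P28 are called late and the 4 of E16.5 and E18.5 early.

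miR-200a-3p had signals in AT2 of 858 and 552 at E16.5, 855 and 753 at E18.5, 2497 and 2601 at P1, 1897 and 1582 at P7, 2895 and 2088 at P14, and 4000, 3650 and 2886 at P28. Each of the 9 postnatal samples was above each of the 4 embryonic ones. Late samples averaged 2714 ± 907 (SD, n = 7), against 754 ± 143 in early samples (SD, n = 4), and the late minus early log2 difference was 1.72 ± 0.47 (SE, limma, adjusted p = 0.00531), or 3.30-fold.

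miR-141-3p had signals in AT2 of 719 and 631 at E16.5, 713 and 535 at E18.5, 1651 and 1890 at P1, 1235 and 1185 at P7, 1693 and 1411 at P14, and 2193, 2454 and 2556 at P28. As for miR-200a-3p, each postnatal sample was above each embryonic one and both P1 samples were above both P7 samples. The 3 highest samples of miR-141-3p were those of P28. Late samples averaged 1818 ± 579 (SD, n = 7), against 649 ± 86.1 in early samples (SD, n = 4), with a log2 difference of 1.35 ± 0.41 (SE, limma, adjusted p = 0.0121), or 2.55-fold. It missed the threshold when samples were scaled to their microRNA total (1.19, limma, adjusted p = 0.0764) and without AT2 E18.5 replicate 2 (1.25, limma, adjusted p = 0.0542), and miR-200a-3p did so with background subtracted (1.75, limma, adjusted p = 0.0675).

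These 2 of the 5 members were called higher in late AT2, where 11.3% of the tested microRNAs were called higher and 40.1% lower. They were also the 2 members whose late samples all lay above the early ones, as did 7.28% of the tested microRNAs. The median late minus early difference was 0.51 over the 5 members and -0.64 over all tested microRNAs, and miR-200a-3p was 15th and miR-141-3p 20th of 302 from the highest down.

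The 3 members with the other seed did not pass. miR-200b-3p, from the same cluster as miR-200a-3p, had 2716 and 2769 at E16.5, 3469 and 3162 at E18.5, 4790 and 5504 at P1, 2886 and 3142 at P7, 6470 and 3537 at P14, and 6111, 5470 and 4806 at P28. Its late minus early difference was 0.51 ± 0.37 (log2 ± SE, limma, adjusted p = 0.251). When every sample was shifted to the same median of the tested microRNAs it passed (1.39, limma, adjusted p = 0.0122), as it did with edgeR on the recovered counts (1.12, edgeR, adjusted p = 0.0474).

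miR-429-3p, the third member on chromosome 4, had 4738 and 4699 at E16.5, 3851 and 2983 at E18.5, 3443 and 4176 at P1, 2629 and 2165 at P7, 3712 and 2941 at P14, and 2959, 3343 and 3951 at P28. Its highest AT2 samples were the 2 of E16.5, where miR-200a-3p had 2 of its 4 lowest. The late minus early difference was -0.42 ± 0.45 (log2 ± SE, limma, adjusted p = 0.436), and its sign turned with the median shift (0.47) and with edgeR (0.18).

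miR-200c-3p, the neighbour of miR-141-3p on chromosome 6, had 3542 and 2619 at E16.5, 3661 and 2968 at E18.5, 2435 and 2112 at P1, 1540 and 2376 at P7, 3951 and 2555 at P14, and 3635, 3401 and 2420 at P28. Its early samples lay within the range of its late ones. The difference was -0.25 ± 0.49 (log2 ± SE, limma, adjusted p = 0.665), and its sign also turned with the median shift (0.63) and with edgeR (0.36).

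**Figure D3:**
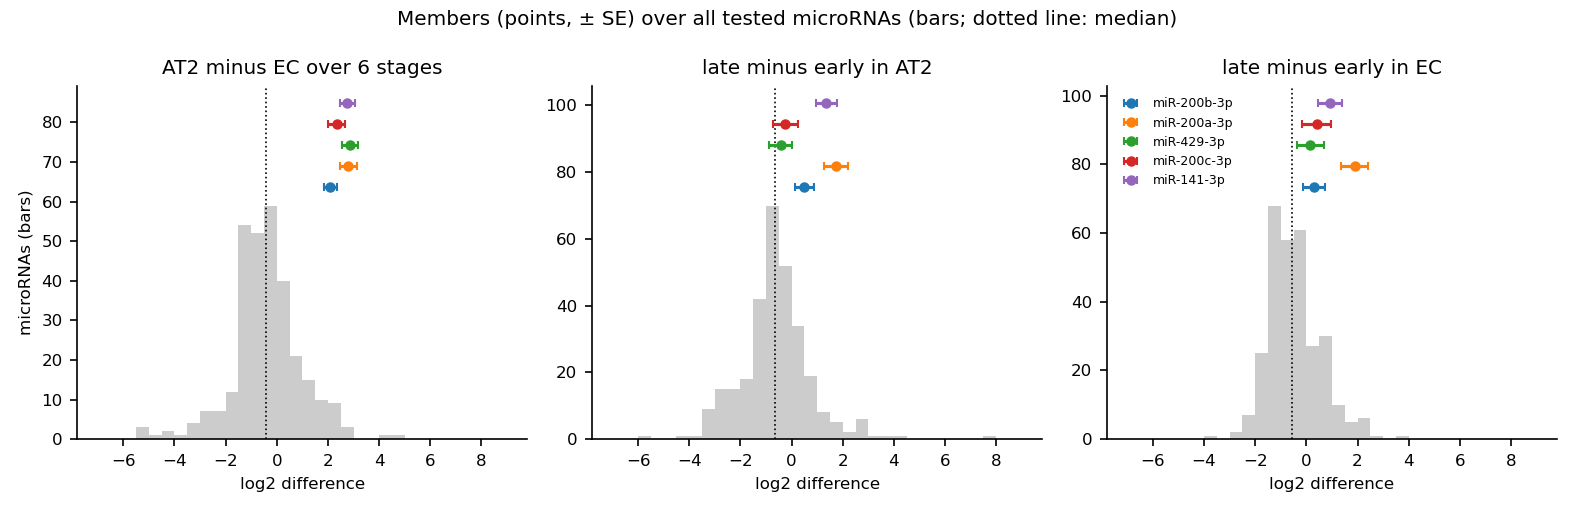
Log2 differences for AT2 minus EC (left), late minus early in AT2 (middle) and late minus early in EC (right), with the 5 members as coloured points with SE bars over a histogram of all 302 tested microRNAs (bars, with the number on the vertical axis) and a dotted line at their median. The vertical place of a point has no meaning. All 5 members lie to the right on the left panel (2.09 to 2.86), and in AT2 over time, with the values as deposited, miR-200a-3p (1.72) and miR-141-3p (1.35) lie above 1 and the other members below it (miR-200b-3p is at 1.39 after the median shift).

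Between neighbouring AT2 stages none of the 5 members passed, where 0.662% of the tested microRNAs were called at E18.5 minus E16.5, 8.61% at P1 minus E18.5, 0.662% at P7 minus P1, 0% at P14 minus P7 and 1.99% at P28 minus P14 (limma, either direction). The step with the largest differences for miR-200a-3p and miR-141-3p was P1 minus E18.5, at 1.67 ± 0.74 and 1.51 ± 0.66 (log2 ± SE, limma, adjusted p = 0.124 for both). Without EC P14 replicate 1, or without EC P14 replicate 2, 2 members passed in such steps. A moderated F-test for any difference among the 6 AT2 stages called 1 of the 5 members, miR-200a-3p (limma, adjusted p = 0.0413), against 49% of the tested microRNAs, with miR-141-3p at an adjusted p of 0.0580. The call of the F-test was lost when any AT2 sample other than AT2 P14 replicate 2 was left out, and a second member passed when either EC sample of P14 or of P28 was.

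How the clusters and the seeds moved against each other was read from log2 ratios within a sample, which a single factor per sample cannot shift except through the added 1. Probes differ in efficiency, so that only changes of a ratio between samples are read, and not its sign. The cluster balance was the mean log2 of the 2 members on chromosome 6 minus the mean of the 3 on chromosome 4. It lay between -0.97 and -0.29 in all 23 samples. Averaged over stages it differed by -0.03 between AT2 and EC, by -0.05 between late and early AT2, and by -0.11 between late and early EC. Each of these was smaller than the pooled SD between samples of a group, 0.12. P1 is in neither the late nor the early group, and there the AT2 balance was lower, at -0.78 and -0.97. In AT2 it was -0.48 and -0.61 at E18.5 and -0.82 and -0.40 at P7.

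The seed balance was the mean log2 of miR-200a-3p and miR-141-3p minus the mean of miR-200b-3p, miR-429-3p and miR-200c-3p, a measure chosen after the values were seen and therefore given without a test. In AT2 it was -0.65 ± 0.26 in late samples (SD, n = 7, range -1.04 to -0.40) and -2.28 ± 0.12 in early samples (SD, n = 4, range -2.46 to -2.18). The AT2 samples thus fell into separate ranges before and after birth, with -0.75 and -0.72 at P1 and -2.23 and -2.26 at E18.5. Averaged over stages, the late minus early difference was 1.59 in AT2, against a pooled SD of 0.26. It lay between 1.39 and 1.66 under all alternatives run for it. The titles number the specimens under the prefixes 15 and 16. Late AT2 samples lay at -0.88 to -0.40 and early ones at -2.26 to -2.23 for prefix 15, and at -1.04 to -0.40 and -2.46 to -2.18 for prefix 16. The early AT2 samples were those of E18.5 under prefix 15 and those of E16.5 under prefix 16, 2 each. The late ones were of P7 and P28 under prefix 15 and of P14 and P28 under prefix 16. Prefix and stage therefore cannot be fully told apart.

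**Figure D4:**
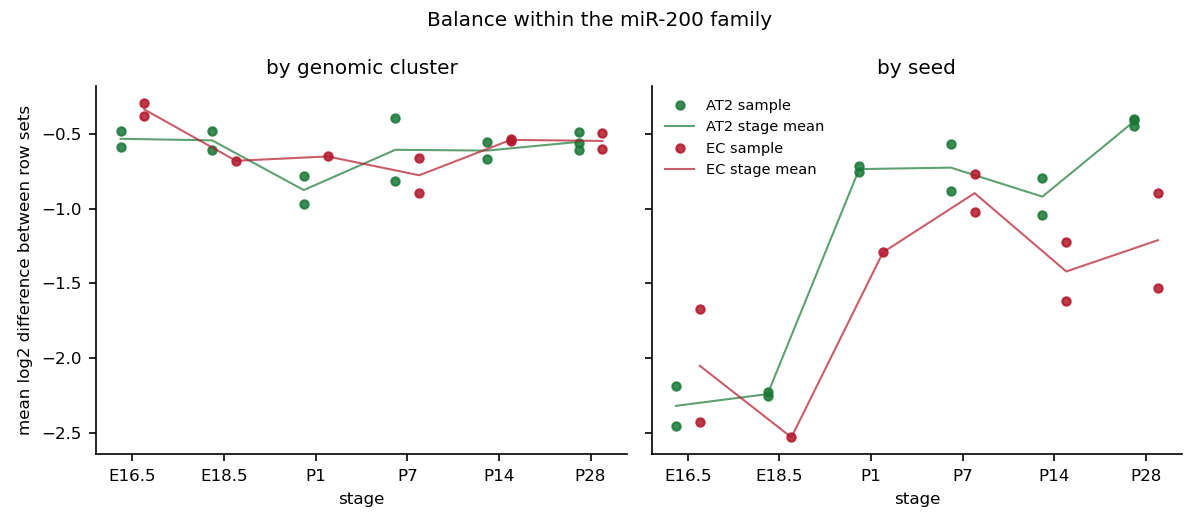
Balance within the family in each sample (log2, vertical axis) over the 6 stages, by genomic cluster (left, chromosome 6 members minus chromosome 4 members) and by seed (right, miR-200a-3p and miR-141-3p minus the other members), with AT2 in green and EC in red and lines through the mean of each stage. The cluster balance stays between -0.97 and -0.29, and the seed balance of AT2 lies between -1.04 and -0.40 after birth and between -2.46 and -2.18 before it.

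Ratios between neighbours on a chromosome are built from the same rows and samples as the seed balance, and are parts of the same observation. The share of other microRNA pairs whose ratios separate as well was not computed, here or below. In AT2 the ratio of miR-200a-3p to miR-429-3p was 4.56-fold higher in late than in early samples (log2 -0.24 ± 0.37 in late and -2.43 ± 0.48 in early samples, SD, n = 7 and 4), and the groups did not overlap. The ratio of miR-141-3p to miR-200c-3p was 3.14-fold higher (-0.65 ± 0.44 in late and -2.30 ± 0.18 in early samples), again without overlap. Between members of different chromosomes that share a seed, the ratio of miR-200a-3p to miR-141-3p changed by 0.37 on the log2 scale and that of miR-429-3p to miR-200c-3p by -0.17, and both overlapped.

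miR-200b-3p stood between the other members. Its ratio to miR-200c-3p, with the same seed, was 1.71-fold higher in late than in early AT2 without overlap (0.70 ± 0.21 in late and -0.07 ± 0.22 in early samples, log2, SD), and the ratio of miR-200a-3p to miR-200b-3p was 2.36-fold higher, also without overlap. Over the 13 AT2 samples, Pearson's r of log2 signals was 0.97 between miR-200a-3p and miR-141-3p, 0.83 between miR-200b-3p and miR-200a-3p, and 0.81 between miR-200b-3p and miR-141-3p. Of the pairs within a cluster, miR-200b-3p with miR-200a-3p thus had the highest r, and the others were 0.06 for miR-200b-3p with miR-429-3p, -0.29 for miR-200a-3p with miR-429-3p and -0.09 for miR-200c-3p with miR-141-3p. Of the other pairs that share a seed across the clusters, miR-200b-3p with miR-200c-3p and miR-429-3p with miR-200c-3p were both at 0.31. In the 10 EC samples all 10 pairs of members correlated at 0.86 to 0.96. Samples of a cell type share their scaling and their stages, and these correlations are descriptions.

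**Figure D5:**
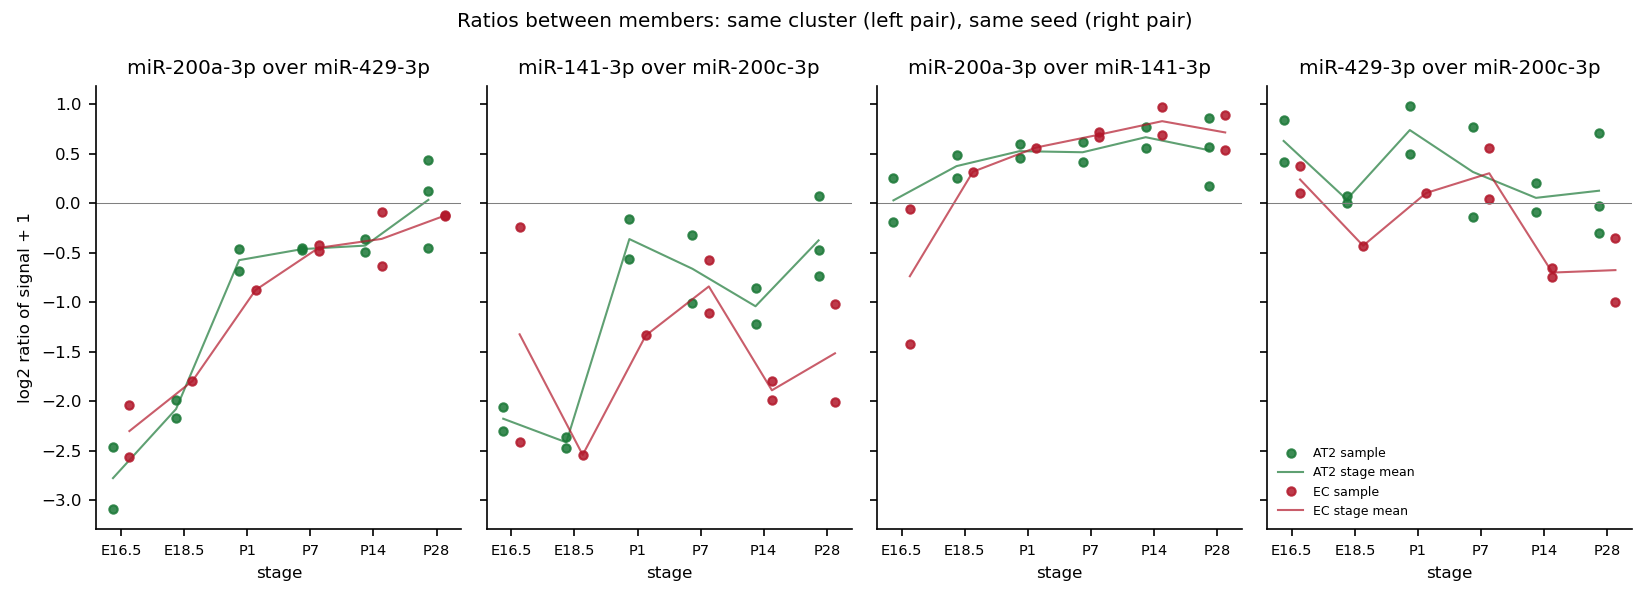
Log2 ratio of signal + 1 between members in each sample over the 6 stages, for the neighbours miR-200a-3p over miR-429-3p and miR-141-3p over miR-200c-3p (left pair) and for members with a shared seed, miR-200a-3p over miR-141-3p and miR-429-3p over miR-200c-3p (right pair), with AT2 in green and EC in red and lines through stage means. In late AT2 samples the left pair is higher than in early ones by 2.19 and 1.65 on average, and the right pair differs by 0.37 and -0.17.

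In EC the late samples were 6 and the early ones 3. miR-200a-3p was higher in late EC, by a log2 of 1.88 ± 0.55 (SE, limma, adjusted p = 0.0154), at 117, 240, 167, 1453, 309 and 788 in late samples, against 82.4, 22.2 and 198 in early samples. The ranges overlapped, and the sample at 22.2 was below background. The call was lost without that sample (1.42, limma, adjusted p = 0.0704), with that common floor (1.32, limma, adjusted p = 0.123) and with scaling to the microRNA total (1.79, limma, adjusted p = 0.0620). Without the 3 EC samples named above it was 1.14 (limma, adjusted p = 0.0442).

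miR-141-3p did not pass in EC (0.93 ± 0.48, log2 ± SE, limma, adjusted p = 0.126), with 70.6, 151, 103, 740, 166 and 541 in late samples, against 85.5, 61.1 and 159 in early samples. It passed with edgeR on the recovered counts (1.91, edgeR, adjusted p = 0.0405). Its log2 difference was 1.40 without EC P14 replicate 1, but 0.455 without EC P14 replicate 2. Without the 3 EC samples named above it was 0.172. miR-200b-3p (0.32 ± 0.43), miR-429-3p (0.15 ± 0.53) and miR-200c-3p (0.41 ± 0.57) did not pass (log2 ± SE, limma, adjusted p = 0.559, 0.845 and 0.566), and all 3 turned sign without EC P14 replicate 2 (-0.10, -0.28 and -0.03). miR-200b-3p passed without EC E18.5 replicate 1 (1.50, limma, adjusted p = 0.0297). So 1 of the 5 members was called higher in late EC, where 9.27% of the tested microRNAs were. For none of the 5 did all late EC samples lie above all early ones, as they did for 6.95% of the tested microRNAs. The F-test over the EC stages called miR-200b-3p, miR-200a-3p and miR-200c-3p (limma, adjusted p = 0.00884, 0.00905 and 0.0386), with 27.2% of the tested microRNAs called. It called 1 member without EC E16.5 replicate 2 and 5 without EC P14 replicate 1.

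The seed balance of EC was -1.62 to -0.77 in late samples and -2.53 to -1.67 in early samples. These ranges did not overlap, but their nearest values were -1.621 and -1.672. The late minus early difference averaged over stages was 1.11. It was 0.94 without the 3 EC samples named above and 0.80 to 1.71 over all alternatives. In the 3 early EC samples miR-200a-3p and miR-141-3p were near background. Their counts were 0.566 to 2.08 and 1.56 to 1.75 times the limit. The ratio of miR-200a-3p to miR-429-3p was 3.53-fold higher in late than in early EC without overlap (log2 -0.31 ± 0.23 in late and -2.13 ± 0.39 in early samples, SD, n = 6 and 3). Unlike in AT2, the ratio of miR-200a-3p to miR-141-3p, which share a seed, also did not overlap in EC and was 2.19-fold higher in late samples (log2 0.75 ± 0.16 in late and -0.38 ± 0.92 in early samples, SD), with early samples at -0.05, -1.42 and 0.32, the lowest being the one with miR-200a-3p below background. That of miR-141-3p to miR-200c-3p changed by 0.31 with overlap, with the early samples at -2.54, -2.41 and -0.24. The early value of -0.24 was EC E16.5 replicate 2, whose miR-141-3p and miR-200c-3p stood at 61.1 and 72.2. Whether part of the EC signal and its time course was that of AT2 cells in the EC samples was not tested.

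The late minus early change was compared between the cell types as an interaction. None of the 5 members passed, and none had an unadjusted p under 0.05, with 6.29% of the tested microRNAs called by limma. The differences, AT2 minus EC, were 0.19 ± 0.57 for miR-200b-3p, -0.16 ± 0.72 for miR-200a-3p, -0.57 ± 0.70 for miR-429-3p, -0.66 ± 0.75 for miR-200c-3p and 0.43 ± 0.64 for miR-141-3p (log2 ± SE, limma). Their SEs leave room for differences of the size of the changes themselves. Without the 3 EC samples named above the difference of miR-141-3p was 1.18. EC P14 replicate 2 and EC P28 replicate 2 among them are late samples high in the family. Leaving them out thus tends by itself to raise this difference, and the late minus early change of miR-141-3p in EC was then 0.172.

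The microRNAs whose pattern was most like that of the family were found by Pearson's r with the mean of the 5 centred members. Over the 23 samples these were MIMAT0000739 (r = 0.93), MIMAT0000541 (0.92) and MIMAT0004939 (0.92), against 0.96 to 0.98 for the members themselves. Each member is part of that mean, which raises its own r. The microRNAs picked this way were higher in AT2, with medians of 350, 501 and 117 in AT2 and 44.2, 119 and 23.3 in EC. That direction follows from the choice, since the family mean itself was higher in AT2. Over the 13 AT2 samples alone they were MIMAT0000535 (0.87), MIMAT0000248 (0.87) and MIMAT0000595 (0.86), and the family mean there followed 3 of its 5 members, with r of 0.94 for miR-200b-3p, 0.92 for miR-200a-3p and 0.93 for miR-141-3p, 0.25 for miR-200c-3p and 0.04 for miR-429-3p.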

How the data were processed

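Per the labels' protocols, total RNA was prepared and read with the nCounter mouse miRNA kit and panel. The build mm10 is named in the submitters' processing notes, and the sources used here give no normalization method. The authors deposited a signal that its own steps show to be counts times 1 factor per sample. The factors ranged from 0.296 to 7.93, and division by them gave whole counts for 13861 of 13861 values (tolerance 0.1), not counting those set to 1 in 9 columns. The table had 626 rows, 602 of them microRNAs.

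The main test was limma 3.58.1 (R 4.3.3, lmFit and eBayes with trend) on log2(signal + 1) with 12 group means over 23 samples, two-sided, Benjamini-Hochberg adjusted over 302 microRNAs at 0.05. Folds on this scale understate changes of low microRNAs. A group of 1 sample was assumed to vary like the rest. Alternatives changed the scaling, background, pseudocount (10), filter (6 samples), trend, specimen block and samples, and used edgeR 4.0.16 (quasi-likelihood) on recovered counts. The limma step was also run on simulated counts with known changes, for AT2 minus EC over 6 stages and for late minus early in AT2. Those counts held no likeness between samples of a specimen and no outlying sample, and the other contrasts and edgeR were not simulated.

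AT2 and EC samples of 1 specimen ID in the titles (9 IDs) were taken as paired. Their consensus correlation was 0.23 (duplicateCorrelation).

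Members and lists were chosen with earlier results of these data known. Besides the members, the 3 microRNAs most correlated with the family mean over all samples and over AT2 were named. Sequences and names are from RefSeq (GRCm38.p6), which matched the 5 members by name and 0 of the 602 identifiers, so 0 of 31 listed markers were tested.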

Additional observations from a re-analysis of the deposited data

Results flagged for a closer look

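Among the 10 EC samples, EC P14 replicate 2 stood far above the rest for 2 members. Its miR-200b-3p signal was 3577.38, with a gap to the next sample of 0.503 of the whole EC range, and its miR-200c-3p signal was 2569.99, with a gap of 0.590. In all, 20 combinations of member and group were examined this way. Chance gives about 1 such gap in 20 where values are normally distributed and combinations are independent. The gaps were taken on signals and not on the log2 scale of the tests, and the members correlated at 0.86 to 0.96 in EC. The rate is therefore only a rough guide here. miR-200a-3p (1453), miR-429-3p (1538) and miR-141-3p (740) were also highest in that sample among EC, with smaller gaps. In the same sample MIMAT0000138, the highest row of every EC sample, was at its lowest EC signal, 48398 against 75076 to 196814 in the others.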

How the results depend on the processing

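All 5 members were higher in AT2 over 6 stages under every alternative run, with log2 differences from 1.88 (miR-200b-3p) to 3.66 (miR-429-3p). Other counts of members called moved. At P14 (4 in the report) they were 0 with quantile normalization, edgeR or a common floor, 1 with background subtracted and 2 with scaling to the microRNA total, and 0 to 5 with 1 sample left out. With 1 sample left out they were 0 to 1 at E18.5, 0 to 3 at P1, 3 to 5 at P7 and 0 to 5 at P28. Under the other alternatives they were 3 to 5 at P28. With specimen as a block 1 passed at P1 and miR-200c-3p joined the others at P28, and the pairing changed no other call. Late minus early in AT2 (2) gave 3 with the median shift or edgeR, where miR-200b-3p passed too. It gave 1 with the microRNA total or background subtracted, and 1 to 2 with 1 sample left out. In EC (1) it gave 0 with the total or the floor, 2 with edgeR, and 0 to 2. The AT2 F-test (1) gave 2 with the median shift, edgeR or all rows tested, 0 with quantile normalization, the total, background subtracted, the floor or no trend, and 0 to 2. The EC F-test (3) gave 1 with the floor, 2 without the 3 EC samples, and 1 to 5 with 1 sample left out. Neighbouring stages (0) gave 0 to 2. Without 3 EC samples (P14 replicate 2, P28 replicate 2 and P1 replicate 1), 3 passed at E18.5, 1 in the interaction, 2 in the AT2 F-test and 2 between neighbouring stages, and P1 had no EC sample.

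The cluster balance, AT2 minus EC, was 0.0176 without those 3 samples and -0.0674 to 0.0064 with 1 left out. Late minus early it was -0.123 to 0.0180 in AT2 with 1 left out, and in EC 0.0183 with quantile normalization, -0.30 with background subtracted and -0.285 to -0.0739 with 1 left out. The seed balance, AT2 minus EC, was 0.62 with background subtracted, and late minus early in EC it was 1.55 with quantile normalization, 1.71 with background subtracted and 0.80 with the floor.

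Of the member values that did not pass, these turned sign. Late minus early in AT2, miR-429-3p was 0.47 with the median shift and 0.18 with edgeR, and miR-200c-3p 0.63 and 0.36. In EC without the 3 samples, miR-200b-3p was -0.20, miR-429-3p -0.51 and miR-200c-3p -0.15, and with 1 left out -0.10 to 1.50, -0.45 to 0.98 and -0.25 to 1.58. In the interaction, miR-200b-3p was -0.0349 with edgeR, and miR-141-3p -0.0897 with quantile normalization. miR-200a-3p was 0.12 with the median shift, 0.40 with the floor and 0.58 without the 3 samples, and miR-429-3p 0.0879 without them. With 1 left out these were -0.998 to 0.61 (miR-200b-3p), -1.25 to 0.36 (miR-200a-3p), -1.40 to 0.0271 (miR-429-3p), -1.83 to 0.0017 (miR-200c-3p) and -0.14 to 0.90 (miR-141-3p). The cause of these changes was not tested. Precision is limited by 1 to 3 samples in a group, and in EC by signals near background.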

Other observations

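In AT2 samples MIMAT0000138 was highest in AT2 P7 replicate 1 (10208), AT2 P7 replicate 2 (9558), AT2 P28 replicate 3 (8542) and AT2 P14 replicate 2 (8496), and lowest in AT2 P14 replicate 1 (336). In the 2 AT2 samples of P14, 1 with a high and 1 with the lowest value of that row, miR-200b-3p was 3537 in replicate 2 and 6470 in replicate 1, miR-200a-3p 2088 and 2895, miR-429-3p 2941 and 3712, miR-200c-3p 2555 and 3951, and miR-141-3p 1411 and 1693. The seed balance of these 2 samples was -0.80 and -1.04 and the cluster balance -0.56 and -0.67.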
